A study of Mus musculus with 4 samples.

Results

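The receptors described here bind noradrenaline, adrenaline, dopamine, serotonin, histamine or, at muscarinic sites, acetylcholine. They were chosen by gene symbol alone, as the protein-coding genes of the adrenergic (Adra1, Adra2, Adrb), dopamine (Drd), serotonin (Htr), muscarinic (Chrm) and histamine (Hrh) receptor families. The rule found 37 members among the 45703 genes, 21843 of them protein-coding, of a table of RNA-seq counts from 4 cultures of mouse cortical astrocytes. The cultures form 1 group: glial cells of the frontal cortex of wild-type CD-1 mice at postnatal day 4, grown with 10% fetal calf serum, 5% horse serum, B27 and 10 ng/ml EGF. Cells were reseeded on day 6 in vitro at 200000 per dish and harvested for RNA 3 days on, after 60 min in Ham's medium without serum. The series profiles calcium signalling components in these cells. It has no treated group, so receptors were compared with each other within the libraries and the libraries were compared for each receptor.

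All of these receptors except the Htr3 subunits are G protein-coupled. Those that act through Gq (the Adra1, Htr2, odd-numbered Chrm and Hrh1 receptors) activate phospholipase C, which makes inositol trisphosphate and releases calcium from the endoplasmic reticulum. Receptors of the Gs class raise cyclic AMP and those of the Gi class lower it, while the Htr3 subunits form a cation channel. In the brain, noradrenaline released from fibres of the locus coeruleus is known to evoke calcium signals in astrocytes.

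The 4 libraries held 37300485 to 42369109 counts, so that 1 count was worth 0.0236 to 0.0268 CPM (counts per 1000000 counts of the library). The labels do not say which cultures came from separate animals or preparations, so each p-value reflects the variation among libraries, which may be technical. Cultures 1 to 3 were close to each other, with a chi-square per degree of freedom of 2.11 to 3.17 between them, against 39.4 to 41.1 between each of them and culture 4. Of the labelled cell type, all 9 astrocyte markers were expressed and summed to 6314 to 7499 CPM. Markers of other cells were present as well. The lists for oligodendrocyte precursors (1528 to 1688 CPM), mural cells (2002 to 2127 CPM, mostly Acta2), fibroblasts or meninges (511.7 to 1420 CPM), neurons (208.3 to 218.3 CPM, mostly Stmn2), oligodendrocytes (202.3 to 242.0 CPM), ependymal cells (182.2 to 203.0 CPM) and microglia (70.9 to 113.1 CPM) were the larger ones. Endothelial cells (7.62 to 14.5 CPM), monoaminergic neurons (1.35 to 5.23 CPM), mast cells (3.80 to 5.35 CPM) and cholinergic neurons (0.107 to 0.224 CPM) were the smaller ones. Dbh, Opalin, Tpsb2, Mcpt4 and Fcer1a had no count. Single genes made up most of some sums, on average Cnp (207.6 CPM) for oligodendrocytes and Foxj1 (189.1 CPM) for ependymal cells. Olig1 (1310 CPM) did so for oligodendrocyte precursors and Kit (4.71 CPM) for mast cells. Some other markers of these lists had few counts: Mog, Tmem212 and Cpa3 had 1 each, Gpr17 had 2 and Sox10 had 9. Such sums do not show that these cells were present. In such bulk RNA, fewer cells of a type and less RNA per cell cannot be told apart, and which cells hold a receptor transcript was not tested.

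Adrenergic receptors made up most of the receptor transcripts. Of the 37 members, 11 (29.7%) were expressed, meaning at least 1 CPM in every library, against 58.1% of all protein-coding genes. These 11 were 7 of the 9 adrenergic receptors (among them Adrb1, Adra1d, Adra1b, Adra2a, Adra1a and Adrb3), 2 of the 14 serotonin receptors (Htr6 and Htr2a), 1 of the 5 muscarinic receptors (Chrm2), 1 of the 4 histamine receptors (Hrh1) and none of the 5 dopamine receptors. A further 17 members had more than 3 counts over the 4 libraries but missed the minimum. The remaining 9 (24.3%) had 3 counts or fewer, against 24.8% of protein-coding genes, and no level is given for them. They were Drd5, Htr1f, Chrm5, Htr1a, Htr2c, Htr5a, Htr4, Hrh4 and Htr3b, of which Hrh4 and Htr3b had no count at all. With a minimum of 0.5 CPM 17 members were expressed (61.1% of protein-coding genes). Without culture 4 there were 13 (59.1% of protein-coding genes), the additions being Adra2c and Htr7.

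**Figure D1:**
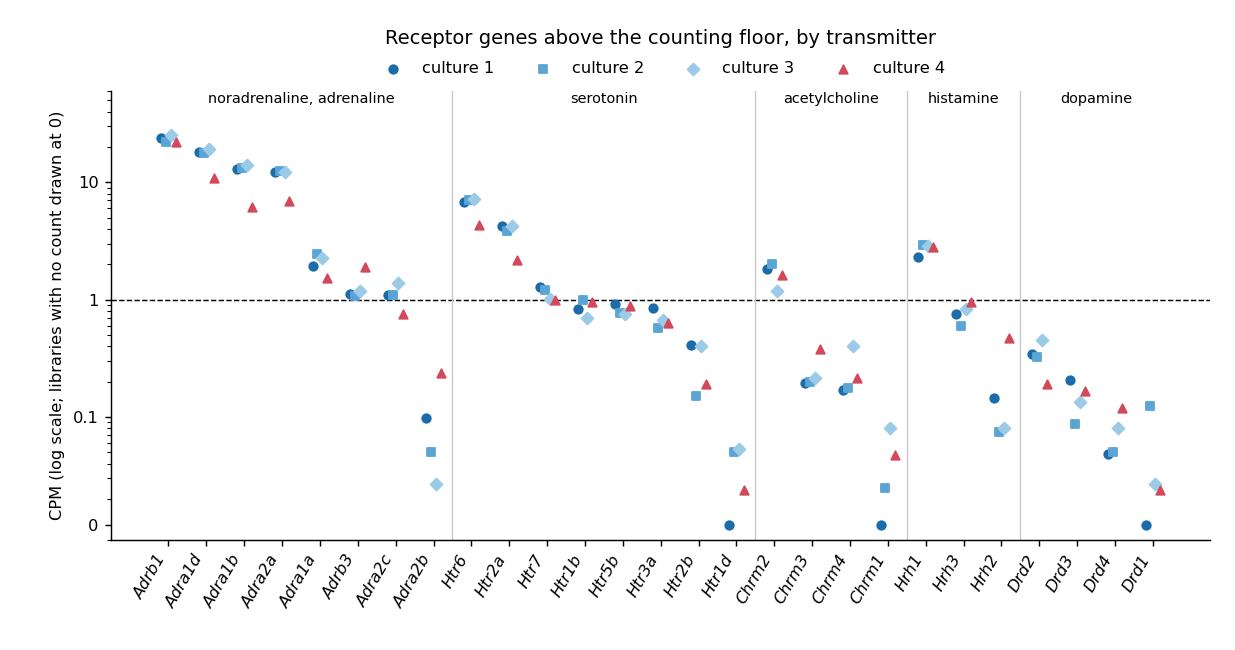
CPM on a log axis of the receptor genes described here with more than 3 counts, grouped by transmitter and ordered by mean; each point is 1 culture and the dashed line marks 1 CPM. Adrb1 is highest at 22.1 to 25.3 CPM, the dopamine receptors all lie below the line, and culture 4 (triangles) lies below the other cultures for several adrenergic and serotonin receptors.

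Summed over all 37 members, receptor transcripts came to 96.3, 94.7, 100.7 and 70.4 CPM in cultures 1 to 4. Adrenergic receptors took 77.4% ± 1.32 of this sum (mean ± SD, n = 4, here and below), serotonin receptors 15.3% ± 0.616, histamine receptors 4.21% ± 1.19, muscarinic receptors 2.49% ± 0.552 and dopamine receptors 0.680% ± 0.0570. Adrb1 alone took 26.1% ± 3.61 and Adra1d 18.1% ± 1.69. The adrenergic share therefore varied little between libraries, although the summed level of these receptors was 73.3 to 79.2 CPM in cultures 1 to 3 and 53.2 CPM in culture 4.

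Levels of different genes were compared as RPKM, the CPM per kilobase of the combined exon length in the table. Among the members reported singly, Adrb1 (7.69 ± 0.490 RPKM) came first, followed by Adra1d (6.36 ± 1.45), Adra1b (2.99 ± 0.952), Adra2a (2.93 ± 0.708), Htr6 (1.70 ± 0.364), Htr2a (1.23 ± 0.329), Hrh1 (0.590 ± 0.0642), Adrb3 (0.371 ± 0.108), Chrm2 (0.259 ± 0.0565) and Adra1a (0.129 ± 0.0260). Even the first of them ranked only 6494th among the protein-coding genes. Taken over all libraries, the ranges of several neighbours overlapped: only those of Adra1d and Adra1b, Htr2a and Hrh1, and Chrm2 and Adra1a did not. Compared within each library, the order mostly held. Adra2a was 1.61 to 1.79 times Htr6 and Hrh1 was 1.13 to 2.11 times Adrb3, each in 4 of 4 libraries. Adrb3 was 0.956 to 2.12 times Chrm2 and above it in 3. Adra1b and Adra2a changed places between libraries, since the first was 1.02 to 1.11 times the other in cultures 1 to 3 but 0.842 times in culture 4. The ratio of Adrb1 to Adra1d was 1.07 to 1.12 in cultures 1 to 3 and 1.73 in culture 4.

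**Figure D2:**
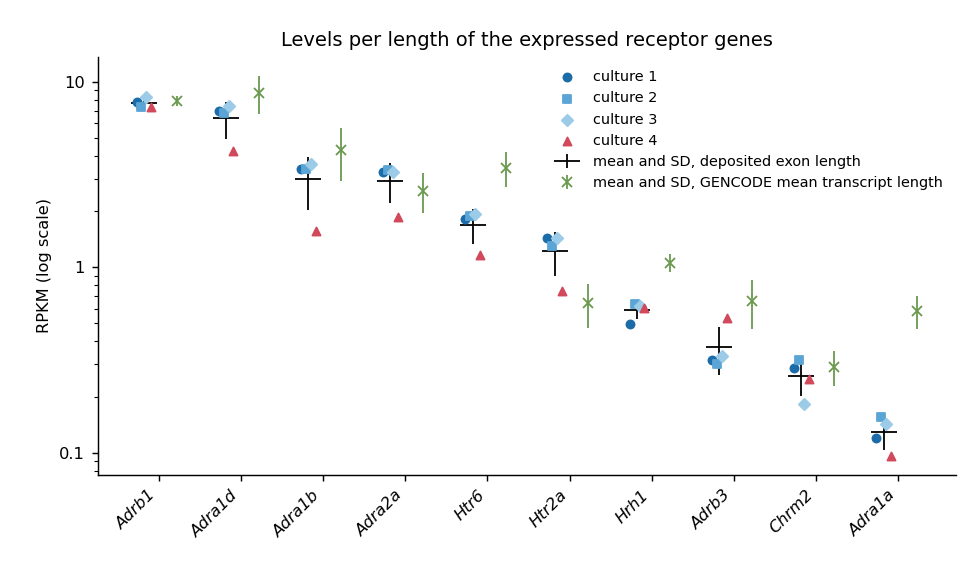
RPKM on a log axis of the expressed receptor genes described here: points are cultures, black bars the mean and SD with the deposited exon length, and green crosses the mean and SD with the mean length of the gene's GENCODE transcripts. Adrb1 and Adra1d lead under both lengths, at 7.69 and 6.36 RPKM with the deposited length, and Adra1a moves most, from 0.129 to 0.581 RPKM.

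The length used moved some genes. The combined exon length of Adra1a is 15887 bases, against a mean of 3532 for its GENCODE transcripts, so that its level per length was 0.129 or 0.581 RPKM. For Htr2a the lengths are 2937 and 5606 bases, which gave 1.23 or 0.645 RPKM. Under GENCODE lengths Hrh1 (1.06 RPKM) stood above Htr2a, and Adra1a stood above Chrm2 (0.292 RPKM). Both are the reverse of the order given above, so these separations depend on the length used. With GENCODE lengths Adra1d (8.72 ± 1.996 RPKM) stood above Adrb1 (7.90 ± 0.503 RPKM), within the spread between libraries.

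Promoter sequences are shown for the 5 receptors with the highest CPM among those with an entry in the RefSeq promoter table for GRCm38.p6. Only the CG counts and letter searches of this section use such windows. Each line gives the 250 bases before the start in that table, on the gene's own strand, 5′ to 3′, with every CG dinucleotide in capitals. The windows are chr19:56721867-56722116 (plus strand) for Adrb1, chr11:43901238-43901487 (minus strand) for Adra1b, chr19:54045009-54045258 (plus strand) for Adra2a, chr4:139075571-139075820 (minus strand) for Htr6 and chr14:74640624-74640873 (plus strand) for Htr2a.
Adrb1: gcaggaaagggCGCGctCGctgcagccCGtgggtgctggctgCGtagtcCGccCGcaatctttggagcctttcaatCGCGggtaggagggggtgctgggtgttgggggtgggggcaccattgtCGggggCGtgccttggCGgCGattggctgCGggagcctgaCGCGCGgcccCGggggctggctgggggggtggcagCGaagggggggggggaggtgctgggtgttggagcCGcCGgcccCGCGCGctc
Adra1b: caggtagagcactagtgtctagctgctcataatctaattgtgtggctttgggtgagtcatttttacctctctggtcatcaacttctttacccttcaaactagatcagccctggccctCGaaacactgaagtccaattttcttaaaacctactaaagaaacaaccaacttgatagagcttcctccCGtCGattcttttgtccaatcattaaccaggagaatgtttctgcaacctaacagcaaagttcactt
Adra2a: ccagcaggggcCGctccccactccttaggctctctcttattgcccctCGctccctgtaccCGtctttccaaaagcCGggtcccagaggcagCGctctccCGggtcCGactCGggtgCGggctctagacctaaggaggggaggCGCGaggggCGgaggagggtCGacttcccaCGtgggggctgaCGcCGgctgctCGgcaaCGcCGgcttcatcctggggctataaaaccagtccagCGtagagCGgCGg
Htr6: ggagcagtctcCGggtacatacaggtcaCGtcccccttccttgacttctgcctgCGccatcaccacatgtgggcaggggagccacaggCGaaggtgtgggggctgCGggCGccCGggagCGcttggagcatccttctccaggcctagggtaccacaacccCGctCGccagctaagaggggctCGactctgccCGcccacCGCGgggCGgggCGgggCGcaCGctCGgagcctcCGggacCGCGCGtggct
Htr2a: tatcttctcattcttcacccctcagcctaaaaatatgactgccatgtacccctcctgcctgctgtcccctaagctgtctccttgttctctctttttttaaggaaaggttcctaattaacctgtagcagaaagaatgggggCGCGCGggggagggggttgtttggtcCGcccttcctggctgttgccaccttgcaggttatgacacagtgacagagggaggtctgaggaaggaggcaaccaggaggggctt
These windows fall into a CG-rich and a CG-poor kind. Adrb1, Htr6 and Adra2a held 24, 23 and 22 CG dinucleotides, while Htr2a held 4 and Adra1b 3. The table had an entry for 28 members, and Adra1d was not among them. Its start is not always the gene start used for the counts. The 2 lie 55544 bases apart for Chrm5, 8206 for Drd3, 4251 for Htr2b and 773 for Htr7. The median number of CG was 21 for the 7 expressed members with an entry (3 to 24), 11 for the 14 members between the floor and the minimum (1 to 42) and 6 for the 7 at or under the floor (1 to 35). Over 17492 protein-coding genes the median was 10, and it was 16 for expressed genes and 2 for genes at or under the floor. The letters TATAAA, on either strand, occurred in 1 of the 28 windows, that of Adra2a, against 12.4% of all protein-coding genes. The cyclic AMP response element TGACGTCA, the same on both strands, occurred in none of the 28, against 1.98%. The members' coding parts span 1071 to 1767 bases. The whole coding part lies in a single exon in 17 of the 37 genes by GENCODE, among them 5 of the 11 expressed members and 4 of the 9 at or under the floor. Neither value was computed over all protein-coding genes, so no comparison with them is made.

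Among the Gq-coupled adrenergic receptors, Adra1d and Adra1b were the main members and Adra1a was low. Adra1d (GeneID 11550; GRCm38.p6 chromosome 2, 131545357 to 131562497, minus strand) had 18.2, 17.7, 19.4 and 10.98 CPM in cultures 1 to 4. Adra1b (GeneID 11548; chromosome 11, 43774605 to 43901250, minus strand) had 13.1, 13.2, 14.1 and 6.11 CPM. Adra1d overlaps Gm14285, a long non-coding RNA on the other strand with 41 counts. Adra1a (GeneID 11549; chromosome 14, 66635251 to 66771240, plus strand) had 1.92, 2.47, 2.28 and 1.53 CPM. Culture 4 was the lowest library for each of these 3 genes, and for Adra1d and Adra1b it lay far below the other cultures. Adra1d was 2.17-fold above Adra1b per length, a log2 ratio of 1.12 ± 0.10 (SE; Adra1d above Adra1b in 4 of 4 libraries; edgeR adjusted p = 2.45e-05, by the Benjamini-Hochberg method over all 11015 family pairs of the table). With coding lengths from GENCODE the ratio was 1.34. Adra1d was 48.8-fold above Adra1a, a fold that rests on the long exon model of that gene and was 14.9 with GENCODE lengths and 8.01 without a length term. Adra1b was 22.5-fold above Adra1a, or 7.17-fold and 5.51-fold under these settings. All 3 ratios passed the test, but so did 94.9% of all family pairs, and the sizes say more than the calls.

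Of the Gi-coupled adrenergic receptors, Adra2a prevailed. Adra2a (GeneID 11551; chromosome 19, 54045259 to 54048982, plus strand), the main autoreceptor of noradrenergic neurons, had 12.1, 12.4, 12.1 and 6.96 CPM. Adra2c had 1.10, 1.10, 1.39 and 0.755 CPM and so missed the minimum in culture 4 alone. Adra2b was at 0.0268 to 0.236 CPM, with 17 counts in all, 10 of them in culture 4. The order was the same in every library. Adra2a was 8.60-fold above Adra2c (log2 ratio 3.10 ± 0.12, SE; edgeR adjusted p = 3.92e-07) and 106-fold above Adra2b (edgeR adjusted p = 4.27e-06), the latter 213-fold without culture 4.

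The beta-adrenergic receptors, which couple to Gs, were led by Adrb1. Adrb1 (GeneID 11554; chromosome 19, 56722117 to 56725150, plus strand) had 23.7, 22.2, 25.3 and 22.1 CPM and was the member with the smallest relative spread among those expressed, at a coefficient of variation of 6.37%. Adrb3 (GeneID 11556; chromosome 8, 27225776 to 27230845, minus strand), known mainly from fat tissue, had 1.12, 1.07, 1.18 and 1.89 CPM. Unlike the alpha receptors, Adrb1 was at a like level in all 4 libraries, and Adrb3 was highest in culture 4. Adrb1 was 20.8-fold above Adrb3 (log2 ratio 4.38 ± 0.18, SE; edgeR adjusted p = 4.14e-07). The GENCODE lengths put this ratio at 12.1. Adrb3 overlaps Gm45470, a long non-coding RNA on the other strand with 68 counts against the 213 of Adrb3. Whether reads were counted by strand is not stated.

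Serotonin receptors were represented by Htr6 and Htr2a. Htr6 (GeneID 15565; chromosome 4, 139059706 to 139075570, minus strand), which couples to Gs, had 6.82, 7.08, 7.24 and 4.34 CPM. Htr2a (GeneID 15558; chromosome 14, 74640874 to 74706859, plus strand), the Gq-coupled receptor through which psychedelic drugs act, had 4.21, 3.82, 4.24 and 2.195 CPM. Both were lowest in culture 4, with no overlap with the other cultures. Htr7, another Gs-coupled receptor, lay at the minimum with 1.29, 1.20, 1.02 and 0.991 CPM. Htr6 was 5.60-fold above Htr7 (log2 ratio 2.48 ± 0.15, SE; edgeR adjusted p = 3.87e-06).

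The other serotonin receptors were low. The Gi-coupled Htr1b (0.697 to 0.998 CPM) and Htr5b (0.751 to 0.925 CPM) and the channel subunit Htr3a (0.574 to 0.852 CPM) lay just under the minimum in every library. Htr3a had no detected partner, since Htr3b had no count. Htr2b was at 0.150 to 0.414 CPM with 46 counts, and it lies within the span of Psmd1, a proteasome gene on the other strand at 279.5 CPM. Reads of these genes may not have been kept apart. Htr2a was 36.6-fold above Htr2b (edgeR adjusted p = 7.71e-07), 12.5-fold without a length term and 2.93-fold with GENCODE lengths. Htr1d had 5 counts in all.

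Of the muscarinic receptors only the Gi-coupled Chrm2 reached the minimum in each library. Chrm2 (GeneID 243764; chromosome 6, 36387991 to 36528638, plus strand), best known as the receptor that slows the heart, had 1.83, 2.02, 1.18 and 1.605 CPM. Chrm4, also Gi-coupled, had 0.170 to 0.402 CPM (38 counts). The Gq-coupled Chrm3 had 0.195, 0.1995, 0.214 and 0.378 CPM (40 counts), Chrm1 had 6 counts and Chrm5 had 3. Within this family the level was thus highest for a Gi-coupled member, and the 3 Gq-coupled members together had fewer counts than Chrm2. Chrm2 was 4.73-fold above Chrm3 (edgeR adjusted p = 0.000177), or 3.58-fold with GENCODE transcript lengths and 8.36-fold with coding lengths. Its ratio to Chrm4 was 3.99 (log2 ratio 1.996 ± 0.36, SE; edgeR adjusted p = 0.00137), and 6.88 without a length term, but with GENCODE transcript lengths it was 1.76 and no longer passed (edgeR adjusted p = 0.0703). The 3′ end of Chrm4 also overlaps that of Mdk, which stood at 62.0 CPM on the other strand.

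Histamine receptors were led by the Gq-coupled Hrh1. Hrh1 (GeneID 15465; chromosome 6, 114397936 to 114483298, plus strand), the target of sedating antihistamines, had 2.29, 2.94, 2.87 and 2.79 CPM. Hrh3, the Gi-coupled receptor that limits histamine release from neurons, had 0.755, 0.599, 0.831 and 0.944 CPM. The Gs-coupled Hrh2 had 6, 3, 3 and 20 counts in cultures 1 to 4. For Hrh2 culture 4 was thus the highest library, at 0.472 CPM with an exact Poisson 95% interval of 0.288 to 0.729 CPM. This interval overlapped that of culture 1 (0.0536 to 0.318 CPM). It lay above those of cultures 2 and 3, which reached 0.219 and 0.235 CPM. Hrh1 did not stand apart in culture 4. Hrh1 was 2.18-fold above Hrh3 (log2 ratio 1.12 ± 0.18, SE; edgeR adjusted p = 0.000761), and 3.47-fold without a length term. It was 22.6-fold above Hrh2 (edgeR adjusted p = 3.95e-05). That ratio was 41.3 without culture 4, 14.0 without a length term and 12.1 with coding lengths.

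Dopamine receptors were barely detected. The Gi-coupled Drd2 had 52 counts (0.189 to 0.456 CPM), Drd3 24 counts (0.0873 to 0.207 CPM, not all whole), Drd4 12 counts and the Gs-coupled Drd1 7 counts. Drd5 had 3. The 5 genes together summed to 0.519 to 0.724 CPM, less than Adrb3 alone in any library. At this depth a gene with 3 counts or fewer over all libraries cannot be told from one that is not transcribed, and intervals and floors cover counting error only.

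Across the families, 19 pairs of members were tested, those in which at least 1 gene was expressed. All 19 passed, against 94.9% of the 11015 pairs of the table, so the number says little about these receptors. In each of the 7 families with an expressed member, 1 gene (Adra1d, Adra2a, Adrb1, Chrm2, Hrh1, Htr6 or Htr2a) was above every other tested member with more than 3 counts in the test and in 4 of 4 libraries. That gene was picked by its RPKM in the same libraries. Families follow symbol stems, and for Htr6 and Htr2a only 1 other member had enough counts to be compared. With GENCODE transcript lengths 6 of the 7 led, and Chrm2 did not.

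By coupling, Gq and Gs receptors took 40.6% ± 4.16 and 39.8% ± 4.26 of the summed level, but without Adrb1 these shares were 54.9% and 18.5%. The Gq class summed to 40.3, 40.6, 43.5 and 24.2 CPM in cultures 1 to 4, with 5 of its 10 members expressed. The Gs class summed to 36.7, 34.9, 38.3 and 32.4 CPM with 4 of 9 expressed. The Gi class summed to 18.4, 18.7, 18.2 and 13.1 CPM with 2 of 16 expressed, and the channel subunits to 0.574 to 0.852 CPM. The balance of the classes differed in culture 4: the Gq share was 41.9%, 42.8% and 43.2% in cultures 1 to 3 and 34.4% in culture 4, while the Gs share was 38.1%, 36.8% and 38.1% against 46.1%. With 1 group and 1 such library, the shift was not tested.

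**Figure D3:**
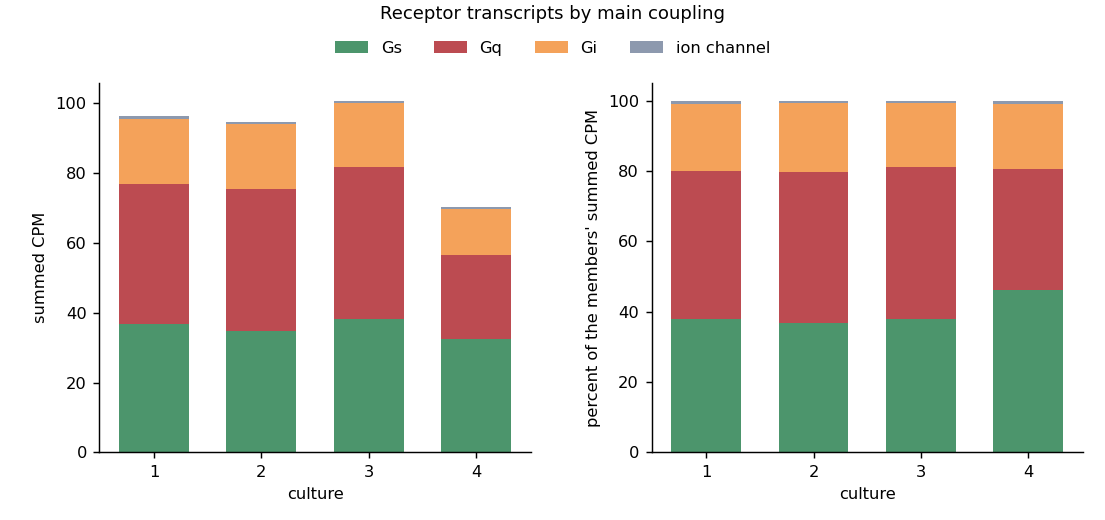
Summed CPM of the 37 receptor genes by main coupling in each culture (left) and the same as percent of the receptor total (right). The Gq part is 40.3 to 43.5 CPM in cultures 1 to 3 and 24.2 CPM in culture 4, and the Gs part is 32.4 to 38.3 CPM in all.

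The spread between cultures was uneven over the receptors. Of the 13 members with a mean of at least 1 CPM, 6 were more than 1.5-fold lower in culture 4 than the mean of the other 3 cultures, against 6.01% of 13037 protein-coding genes at that level. They were Adra1b (2.201-fold), Htr2a (1.86-fold), Adra2a (1.76-fold), Adra1d (1.68-fold), Htr6 (1.62-fold) and Adra2c (1.58-fold). Adra1b was also past 2-fold, as were 1.99% of those genes. Adrb3 was the only one of the 13 more than 1.5-fold higher, against 2.05% of genes, and none was more than 2-fold higher, against 0.437%. In cultures 1 and 2 no member was more than 1.5-fold lower (0.476% and 0.345% of genes) or higher (0.123% and 0.253%). In culture 3 Chrm2 was lower (0.368% of genes) and none was higher (0.284%). By Dixon's criterion culture 4 stood apart in 4 of the 13, against 15.6% of genes for any library: it was lowest for Adra1b, Adra2a and Htr6 (6.26% of genes) and highest for Adrb3 (8.04%). The exact Poisson 95% interval of Adra1b in culture 4 was 5.39 to 6.90 CPM, from 259 counts, and the lowest interval bound in the other cultures was 12.01 CPM. For Adra2a the interval in culture 4 was 6.19 to 7.80 CPM against a lowest bound of 11.1 CPM, and for Adra1d it was 10.0 to 12.02 CPM against 16.5 CPM. These 3 genes are among those named for their low level in culture 4, and the intervals are given as a description. For Adrb3 (1.497 to 2.35 CPM in culture 4) the intervals of culture 3 (0.857 to 1.58 CPM) and culture 4 overlapped. Those of cultures 1 and 2 reached 1.493 and 1.445 CPM and lay just below that of culture 4.

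**Figure D4:**
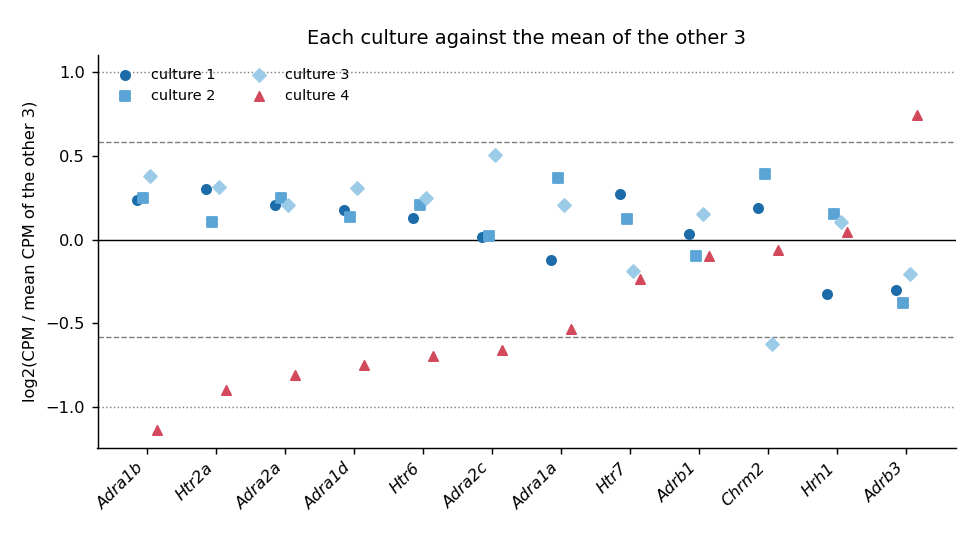
Log2 of each culture's CPM over the mean of the other 3 cultures for the receptor genes described here with a mean of at least 1 CPM; dashed lines mark 1.5-fold and dotted lines 2-fold. Culture 4 (triangles) ranges from -1.14 for Adra1b to 0.75 for Adrb3; it is part of the mean that cultures 1 to 3 are set against.

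Not all receptors moved in that way. In culture 4 Adrb1 was at a log2 ratio of -0.10 to the mean of the others, Chrm2 at -0.06 and Hrh1 at 0.04. The median over the 13 members was -0.54, with 11 of them lower, beside a median of 0.02 over the 13037 genes, of which 46.0% were lower. Several marker lists moved in culture 4 as well. The fibroblast or meningeal list summed to 1334 to 1420 CPM in cultures 1 to 3 and 511.7 CPM in culture 4, the microglial list to 105.3 to 113.1 and 70.9 CPM, the endothelial list to 13.5 to 14.5 and 7.62 CPM, and the astrocyte list to 7319 to 7499 and 6314 CPM. Among astrocyte markers Gfap was at 1498 to 1555 and 779.7 CPM, while Aldh1l1 was at 721.0 to 736.7 and 751.5 CPM. The oligodendrocyte list (202.3 CPM, against 222.4 to 242.0 CPM) and the mast cell list, nearly all Kit (3.80 against 4.53 to 5.35 CPM), were lower there too. So was the monoaminergic list (1.35 against 4.76 to 5.23 CPM). The neuron list was only slightly lower (208.3 against 210.7 to 218.3 CPM). Of its 5 markers with a mean of at least 1 CPM, 3 were lower, while Eno2 and Gad2 were higher. The oligodendrocyte precursor list was higher (1688 CPM, against 1528 to 1577 CPM). The sums of the mural, ependymal and cholinergic lists lay within the range of the others, the mural one being mostly Acta2. Of the markers with a mean of at least 1 CPM, 3 of 4 fibroblast or meningeal and 7 of 8 microglial ones were lower. So were 3 of 4 mural ones, with a median log2 ratio of -0.49 over these 4. Pdgfra, Acta2 (log2 ratio 0.02) and Trem2 were higher. The part of these shifts in the receptor values was not tested.

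As a measure of this spread, the biological coefficient of variation (BCV, the variation beyond counting noise, edgeR) had a median of 0.180 over the 17 members that passed the filter on low counts and of 0.0941 over all 17113 genes that passed. It was 0.0832 for Adrb1, where genes of like abundance had a median of 0.0794, and 0.275 for Adra1b, where genes of like abundance had 0.0957. Many members are of low abundance, where this median was larger: it was 0.138 for Adra1a, itself at 0.180, and 0.148 for Htr3a, itself at 0.136. Hrh1, Htr7, Htr1b, Htr5b, Hrh3 and Htr3a lay below the median of genes of like abundance, and the other members that passed lay above it. Without culture 4 the median was 0.0280 over 18 members and 0.0255 over 17330 genes, so that the larger spread of these receptors came with that library.

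The genes that make, move and break down the transmitters were mostly those of breakdown. Of 27 such genes 8 were expressed and 8 had 3 counts or fewer. The highest was Maoa, a monoamine oxidase, at 112.0 ± 7.64 CPM. Dbh and Pnmt, the last enzymes of noradrenaline and adrenaline synthesis, had no count. Of 8 receptor kinases and arrestins, which switch off active receptors, 7 were expressed, led by Grk2 at 105.9 ± 2.01 CPM and Grk6 at 84.9 ± 4.57 CPM. Of 16 nicotinic subunits, the channel-forming receptors of acetylcholine, 4 were expressed and 7 had 3 counts or fewer. Their highest members were Chrna4 at 11.9 ± 3.59 CPM and Chrnb1 at 6.81 ± 1.12 CPM. In culture 4 Chrna4 had 6.58 CPM, against 13.2 to 14.1 CPM in the other cultures.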

How the data were processed

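RNA-seq of poly-A RNA from 4 cultures gave 1 deposited table with estimated counts per gene; 31.7% of values above 0 were not whole. Per the submitters' processing notes, bcl2fastq 2.20.0.422, cutadapt 1.17, STAR 2.7.2b and featureCounts 1.6.4 were used with build GRCm38.p6; their roles, settings and any use of strand are not stated. Every entry names a gene. From these counts, CPM used the library sums and RPKM the deposited exon length.

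Family pairs (protein-coding genes that share a symbol stem, 2 to 10 per stem) were tested over the whole table with edgeR 4.0.16 (quasi-likelihood, two-sided, counts rounded, terms for library and gene, offset of library size times length). A pair entered when 1 gene had at least 1 CPM in every library. The SE was derived from the F statistic. DESeq2 1.42.0 was an alternative. Scripts were tested on simulated data.

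Members are named: with every library's value if expressed, otherwise by range or counts, and other genes by 3 pathway lists (the 2 highest) and cell type markers. Dbh, Pnmt and the observations on Slc6a2, Tph2 and Ddc were chosen after their values were seen. Members and lists were chosen with earlier results of these data known. Some results, for 1 member and 1 other gene, are not reported here singly or drawn, but both remain in counts and sums.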

Additional observations from a re-analysis of the deposited data

Results flagged for a closer look

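Culture 4 stood apart from the other cultures by Dixon's criterion (the gap to the nearest library as a share of the whole range) in 5 receptor genes and 3 sums. It was lowest for Adra1b (6.11 CPM), Adra2a (6.96 CPM) and Htr6 (4.34 CPM), and for the sums of the Gi class (13.1 CPM), the Gq class (24.2 CPM) and the serotonin receptors (10.2 CPM). It was highest for Adrb3 (1.89 CPM) and Chrm3 (0.378 CPM, 16 counts). The genes examined were the 28 members with more than 3 counts. The 3 sums contain Adra2a, Adra1b and Htr6 and so are not separate cases. Independent, normally spread values would pass this limit about 1 time in 20, a rate that protein-coding genes with a mean of at least 1 CPM also exceeded here. No share over all genes is given for the set of 28. Of the 13 members with a mean of at least 1 CPM, 4 passed this limit, against 15.6% of 13037 protein-coding genes, and culture 4 was the lowest library in 3 of them, against 6.26%.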

How the results depend on the processing

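The number of expressed receptors was 11, 17 with a minimum of 0.5 CPM, 8 with a minimum of 2 CPM or 1 TPM, and 11 to 13 when 1 culture was left out. The shares of protein-coding genes were 58.1%, 61.1% at 0.5 CPM, 55.1% at 2 CPM, 56.6% at 1 TPM and 59.1% without culture 4. The number of member pairs that passed was 39 of 49 when pairs without an expressed gene entered, against 90.0% of all 12984 pairs in that setting. It was 18 to 21 in the other settings, where 89.2% to 96.7% of all pairs passed. With the like cultures 1 to 3 summed into 1 library it was 19 of 19, but the p-values were larger. For Hrh1 over Hrh3 the ratio was then 2.09 (edgeR adjusted p = 0.0264). Chrm2 over Chrm4 had a log2 ratio of 0.82 with GENCODE transcript lengths (edgeR adjusted p = 0.0703; up to 0.00936 in the other settings). GENCODE coding lengths, a setting chosen after seeing the data, changed no call. With RPKM sums the share was 16.3% for Gi, 1.169% for the channel, 1.44% for muscarinic, 80.0% for adrenergic and 14.6% for serotonin receptors. Without Adrb1 the shares were 25.6% for Gi, 54.9% for Gq, 18.5% for Gs, 1.04% for the channel, 3.40% for muscarinic, 0.925% for dopamine, 5.78% for histamine, 69.2% for adrenergic and 20.7% for serotonin receptors. The median BCV of the members was 0.0280 to 0.213 with 1 culture left out. Members more than 2-fold from the other cultures numbered 1 for culture 4, and 7 at 1.5-fold. For culture 3 the number rose from 0 to 1 at 1.5-fold, and with a minimum mean of 0.2 CPM it rose from 0 to 1 for cultures 2 and 3. No paired analysis was possible because the 4 cultures form 1 group, and in the pair test each library is already a term. Coding lengths from a RefSeq protein table were not run. Genes near 0.1 CPM rest on a few counts per library.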

Other observations

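Of the 7 listed genes of monoamine neurons, 2 that were chosen after their values were seen had lower levels in culture 4. Slc6a2, the noradrenaline transporter, stood at 2.14, 1.95 and 2.25 CPM in cultures 1 to 3 and 0.189 CPM in culture 4. Tph2, the serotonin-making enzyme of neurons, stood at 2.17, 1.77 and 1.88 CPM and 0.378 CPM. Ddc, the decarboxylase shared by dopamine and serotonin synthesis, had 0.487, 0.798, 0.483 and 0.566 CPM in cultures 1 to 4, so that culture 4 lay within the range of the others. The remaining genes had few counts, with Slc6a4 at 5, Slc6a3 at 19, Th at 22 and Dbh at none. No test was made on them.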
